A study of Mus musculus with 12 samples.

Results

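MicroRNA-bearing loci were examined in livers of C57BL/6 mice, either wild type or LsATF4-/-, in which the liver lacks ATF4, a transcription factor of the endoplasmic reticulum stress response. Loci were chosen by their name, which had to hold a microRNA symbol, and by their level, with the highest FPKM over the 4 groups at least 1. FPKM is a fragment count scaled to transcript length and to sequencing depth. This gave 49 of the 27109 loci in the table. Of 942 loci with a microRNA symbol, 876 were listed at 0 in every group and 17 stayed between 0 and 1. The 4 groups were wild type with 0.3% DMSO, wild type with 1 mg/kg tunicamycin, LsATF4-/- with 0.3% DMSO and LsATF4-/- with 1 mg/kg tunicamycin, each given by intraperitoneal injection 6 h before the liver was taken. Tunicamycin blocks N-linked glycosylation and so stresses the endoplasmic reticulum. Each group had 3 libraries, pooled by the authors into 1 value, so no replicate spread can be given and the weight of any single library is unknown. The age of the mice and the promoter behind the liver-specific deletion were not given in the sources used here.

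MicroRNAs are short RNAs that pair through their seed, the bases near their 5′ end, with messenger RNAs and lower the output of those messengers. Most are cut from a hairpin inside a longer primary transcript, first by Drosha in the nucleus and then by Dicer in the cytoplasm, and the mature strand is loaded into an Argonaute protein. Many hairpins lie in an intron or exon of a host gene. The libraries held poly(A)-selected RNA, and mature microRNAs carry no poly(A) tail, so these values describe primary transcripts and hosts rather than mature microRNAs.

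Of the 57 microRNA symbols in these loci, 49 were matched to a mature sequence of RefSeq (build GRCm38.p6), 78 sequences in all. Part of the RefSeq entries was left out before matching, so a symbol without a match may still have a sequence there. Those below belong to the loci on which the results turn, with the seed (bases 2 to 8) in capitals. The first 3 share the let-7 seed, which 11 mouse mature sequences of the RefSeq table carry. They come from 1 locus.
let-7a-5p: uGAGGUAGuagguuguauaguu
let-7d-5p: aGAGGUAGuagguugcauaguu
let-7f-5p: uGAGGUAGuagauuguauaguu
The next 4 come from the Mir17hg locus, where 19a and 19b share 1 seed and 18a and 20a have seeds of their own.
miR-19a-3p: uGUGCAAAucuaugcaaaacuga
miR-19b-3p: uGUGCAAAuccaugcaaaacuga
miR-18a-5p: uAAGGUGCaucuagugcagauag
miR-20a-5p: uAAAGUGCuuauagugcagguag
The following 6 come from the other loci with large or opposed changes, and no seed is shared among them.
miR-365-3p: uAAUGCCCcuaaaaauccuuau
miR-223-3p: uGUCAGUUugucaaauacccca
miR-34a-5p: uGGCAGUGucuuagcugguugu
miR-770-5p: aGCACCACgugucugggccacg
miR-192-5p: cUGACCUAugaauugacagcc
miR-148a-3p: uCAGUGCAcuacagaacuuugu

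The 49 loci fell into 3 classes. In 13 loci the microRNA was merged with another transcript, such as a host or a small nucleolar RNA. The other 36 carried microRNA symbols alone, and 23 of these shared their mapped interval with a named locus that was not a microRNA, most often a protein-coding gene, while 13 had an interval to themselves. This last split was made after the table had been seen. It counted only named loci with the same start and end, so a locus with its own interval may still overlap another transcript. The interval of Mir1932 spans 97604 bp against a hairpin of 90 nt. The Mir345 hairpin lies at the edge of an exon of the protein-coding gene Slc25a47 on the same strand. The highest FPKM of a locus had a median of 2.85 (1.43 to 22.7) in the 13 with their own interval, 4.14 (1.28 to 24.1) in the merged loci and 16.8 (1.19 to 2724) in the 23 with a shared interval. FPKM divides by transcript length, so at a short annotated hairpin a few fragments give a large value, and the fragment counts were not used here. A group listed at 0 occurred in 14 of the 23 loci with a shared interval, in 1 of 13 with their own (Mir8102) and in 1 of 13 merged loci (Mir1940,Snora47). Just inside the threshold lay Mir3968 (1.19), Gm6277,Mir1901 (1.28) and Mir3569,Zbtb32 (1.30), and just outside it Mirlet7i (0.951), Mir103-2 (0.944) and Mir1195 (0.915).

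The authors' test was made at 39 of the 49 loci in at least 1 of the 4 comparisons used, at 30 in all 4 and at 10 in none. A locus was called when its q in the authors' deposited table was under 0.05. Of the 49, 16 were called at least once: 8 of the 13 with their own interval, 2 of the 23 with a shared interval and 6 of the 13 merged loci. None of the 16 had a group at 0. Only 13 of the 49 reached 1 FPKM in all 4 groups, and 8 reached it in 1 group alone. A locus that passed through its highest group had to differ between groups, so the counts of calls describe these loci and support nothing.

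The targeted gene stood in a locus merged with the calcium channel gene Cacna1i, so it checks the labels only in part. Its FPKM was 46.9 (DMSO) and 356 (tunicamycin) in wild type, and 22.8 (DMSO) and 114 (tunicamycin) in the knockout. By the authors' deposited table Atf4 was lower in the knockout under tunicamycin (log2 fold change -1.64, q = 0.000396) and was not called under DMSO (-1.04, q = 0.270). The 6 hepatocyte markers summed to 15165, 9408, 12641 and 8202 FPKM in the same order of groups, and of the 5 tested, tunicamycin lowered 2 and raised 0 in each genotype. Albumin (Alb) is listed at 0 in all 4 groups with the status HIDATA, Cuffdiff's mark for a locus with too many fragments to be quantified, so that 0 is not a measured absence. All 3 DMSO libraries of the knockout were run on lane 5 and the remaining 9 libraries on lane 4, and wherever that group enters a comparison the lane and the group cannot be told apart. Markers of adrenal gland, muscle and fat, tissues that are no part of liver, summed to 1109, 265 and 107 FPKM in the knockout with tunicamycin, against at most 22.7, 4.08 and 3.38 in any other group.

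**Figure D1:**
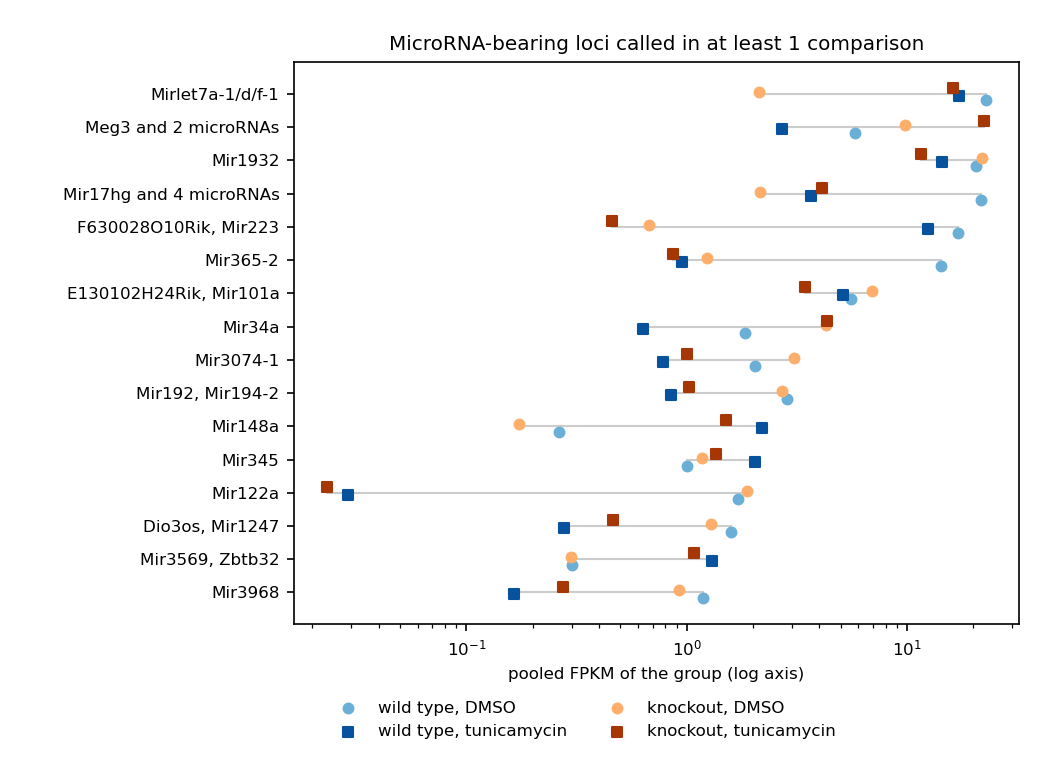
Pooled FPKM (log axis) of the 16 microRNA-bearing loci called in at least 1 comparison, 1 point per group, with no error bar because each group has a single pooled value; grey lines join the lowest and highest group. Mir365-2 and Mir17hg stand high in wild type with DMSO alone, the let-7 locus stands low in the knockout with DMSO alone, and F630028O10Rik,Mir223 is low in both knockout groups.

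Without tunicamycin, the called loci with the largest changes between knockout and wild type were 4, all lower in the knockout: the hosts of Mir223 and of the Mir17 cluster, Mir365-2 and the let-7 locus. The Mir34a and Meg3 loci were higher. The count was 6 of the 35 members tested, 2 higher and 4 lower, where 2.86% of all 14788 loci tested were called (1.39% higher and 1.47% lower). All 4 that were lower fell by at least 3 on the log2 scale, a limit set after the values were seen, and 13 loci in all (0.0879% of those tested) did so. The median log2 fold change of the members was 0.12, and that of all tested loci -0.07. Some loci without a call had differences as large, such as Mir6340 (3.97, q = 0.650) and Mir1957b (3.46, q = 0.660, in the authors' deposited table), both higher in level in the knockout. Of 7 endothelium markers, 6 were called higher in the knockout in this comparison (median 0.74), and their summed level was 94.1 FPKM there against 60.6 for wild type. Erythroid markers summed to 49.0 and 204.5 FPKM, with 0 of 3 called by the authors' Cuffdiff test and 0 with an unadjusted p under 0.05. The part of these cell types in the calls under DMSO was not tested.

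F630028O10Rik,Mir223 (mm9 chrX:93435264-93438981) is the host transcript of miR-223, a microRNA of granulocytes and other myeloid cells, whose hairpin lies in its exon. Its FPKM was 17.0 (DMSO) and 12.4 (tunicamycin) in wild type, and 0.675 (DMSO) and 0.457 (tunicamycin) in the knockout. Both pooled knockout values were low and both pooled wild-type values high. The authors' deposited table gives a log2 fold change of the knockout against wild type of -4.65 under DMSO (q = 0.000396) and -4.77 under tunicamycin (q = 0.000396), the latter within lane 4. In that comparison it was 1 of 4 loci in the whole table (0.0268% of those tested) called lower by at least 3. That limit was set after the values were seen. The locus reached 1 FPKM in the wild-type groups alone, so this count describes it and supports nothing. Tunicamycin gave no call at this locus in either genotype (-0.45, q = 0.764, and -0.56, q = 0.598, by the authors' deposited table). In wild type the deposited statistic (-3.71) was large beside its p of 0.554 by the authors' Cuffdiff test. The 6 neutrophil and myeloid markers found in the table summed to 6.13, 3.52, 6.26 and 3.08 FPKM in the 4 groups, so their sum did not follow the Mir223 host, and myeloperoxidase (Mpo) was at 0.00620, 0.0120, 0.00702 and 0.0114 FPKM. In whole liver, fewer cells of a type and less RNA per cell cannot be told apart.

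Mir365-2 (mm9 chr11:79539901-79545278) had an interval to itself. It stood at 14.3 FPKM (DMSO) and 0.952 (tunicamycin) in wild type, and 1.23 (DMSO) and 0.868 (tunicamycin) in the knockout. One group was high and the other 3 were low. For the knockout against wild type under DMSO, the authors' deposited table gives -3.53 (q = 0.000396), and for tunicamycin in wild type -3.91 (q = 0.000396). These 2 comparisons share the wild-type DMSO libraries, so both values lean on the same high group. Neither tunicamycin in the knockout (-0.51, q = 0.427) nor genotype under tunicamycin (-0.13, q = 0.894) gave a call in the authors' deposited table.

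Mir17hg (mm9 chr14:115443058-115445950) is the host transcript of a cluster known for its role in cell proliferation, and here it was merged with Mir18, Mir19a, Mir19b-1 and Mir20a. Its FPKM was 21.7 (DMSO) and 3.66 (tunicamycin) in wild type, and 2.16 (DMSO) and 4.11 (tunicamycin) in the knockout. Again wild type with DMSO stood apart from the other 3 groups. The log2 fold change in the authors' deposited table was -3.33 for the knockout under DMSO (q = 0.000396), -2.57 for tunicamycin in wild type (q = 0.000396) and 0.93 for tunicamycin in the knockout (q = 0.0355). Genotype under tunicamycin gave no call there (0.17, q = 0.774 by the authors' deposited table).

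The locus of let-7a-1, let-7d and let-7f-1 (mm9 chr13:48630763-48633641) makes members of the let-7 family, which restrain growth genes. It stood at 22.7 FPKM (DMSO) and 17.3 (tunicamycin) in wild type, and 2.13 (DMSO) and 16.1 (tunicamycin) in the knockout. The knockout with DMSO was low and the other 3 groups were close together. According to the authors' deposited table, let-7 was lower in the knockout under DMSO (-3.41, q = 0.000396) and higher with tunicamycin in the knockout (2.92, q = 0.000396), 2 comparisons that share the low group on lane 5. Within lane 4 neither comparison gave a call in the authors' deposited table (tunicamycin in wild type -0.40, q = 0.620, and genotype under tunicamycin -0.10, q = 0.932). The 3 hairpins lay in an exon of the long noncoding gene 6720427I07Rik in the GRCm38 annotation.

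Mir34a (mm9 chr4:149442514-149446128) encodes miR-34a, a target of p53 that represses cell cycle genes. It stood at 1.84 FPKM (DMSO) and 0.632 (tunicamycin) in wild type, and 4.29 (DMSO) and 4.33 (tunicamycin) in the knockout. Both pooled knockout values lay above both pooled wild-type values. The authors' deposited table called it higher in the knockout under DMSO (1.22, q = 0.00200) and under tunicamycin (2.78, q = 0.000396, within lane 4). Tunicamycin lowered it in wild type (-1.54, q = 0.0138 in the authors' deposited table) and gave no call in the knockout (0.01, q = 0.983).

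Meg3 (mm9 chr12:110779205-110809939) is a maternally expressed noncoding RNA of an imprinted domain rich in microRNAs, merged here with Mir1906-1 and Mir770. Its FPKM was 5.79 (DMSO) and 2.71 (tunicamycin) in wild type, and 9.76 (DMSO) and 22.4 (tunicamycin) in the knockout. The authors' deposited table called Meg3 in all 4 comparisons: higher in the knockout under DMSO (0.75, q = 0.0209) and under tunicamycin (3.05, q = 0.000396), lower with tunicamycin in wild type (-1.10, q = 0.00553) and higher with it in the knockout (1.20, q = 0.00140). The call under DMSO is lost when p-values are adjusted within that comparison (q = 0.270). The knockout with tunicamycin, where the locus was highest, is also the group with the adrenal, muscle and fat markers, and their part in the result was not tested. In the DMSO comparison those sums were 1.96, 1.87 and 3.38 FPKM in the knockout and 5.88, 1.56 and 0.230 in wild type, and the endothelium markers stood higher in the knockout, as given above.

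A list of other transcripts of that domain (Dlk1, Rtl1, Rian and Mirg), written after the data were seen, gave 1 call in its 4 comparisons. Rian, the noncoding neighbour downstream of Meg3, stood at 1.23, 0.512, 1.86 and 4.17 FPKM and was higher in the knockout under tunicamycin (3.03, q = 0.00914 in the authors' deposited table). The paternally expressed growth factor Dlk1 was at 0.009, 0, 0.018 and 3.42 FPKM. Mir1188, whose hairpin lies in an intron of Rian, was listed at 0 in 3 groups and at 7.51 FPKM in the knockout with tunicamycin, and no test was made. Rian, Dlk1 and Mir1188 were highest in the group with the foreign tissue markers, as was Rtl1 (0.0280 FPKM, and 0 in the other groups). Mirg was at 0.178, 0.0626, 0.369 and 0.337 FPKM, highest in the knockout with DMSO, and no test was made. Dio3os,Mir1247, farther along chromosome 12, was at 1.58, 0.279, 1.29 and 0.461 FPKM, highest in wild type with DMSO.

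Tunicamycin in wild type, within lane 4, was followed by lower values at the 2 best known liver loci, Mir122a and Mir192,Mir194-2, and by higher values at Mir148a. Of 37 members tested 11 were called, 3 higher and 8 lower, where 37.1% of all 14998 loci tested were called (18.1% higher and 19% lower). The members' median log2 fold change was -0.18 against -0.02 over all tested loci. In the knockout 10 of 38 were called, 5 in each direction, where the share over all 15534 loci tested was 33.0% (18.1% higher and 14.8% lower), with medians of 0.01 for both. Calls in both genotypes were made at 6 loci, 4 of them in the same direction, while 5 were called in wild type alone and 4 in the knockout alone. At q under 0.01 the members called were 5 in wild type and 4 in the knockout, where the shares over all loci tested were 28.7% and 24.6%.

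Mir122a encodes miR-122, the dominant microRNA of hepatocytes. Its FPKM was 1.70 (DMSO) and 0.0291 (tunicamycin) in wild type, and 1.88 (DMSO) and 0.0233 (tunicamycin) in the knockout. Both tunicamycin groups were near 0, and the authors' deposited table gives -5.87 in wild type (q = 0.0166) and -6.34 in the knockout (q = 0.0168). The mature miR-122 level was not measured.

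Mir192,Mir194-2 (mm9 chr19:6264642-6266790) encodes 2 microRNAs abundant in liver, kidney and gut. It was at 2.85 FPKM (DMSO) and 0.846 (tunicamycin) in wild type, and 2.71 (DMSO) and 1.03 (tunicamycin) in the knockout. Both pooled tunicamycin values lay below both pooled DMSO values, and the authors' deposited table gives -1.75 (q = 0.0105) in wild type and -1.40 (q = 0.0201) in the knockout.

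Mir148a (mm9 chr6:51215386-51220116) encodes a microRNA abundant in liver and known to repress the LDL receptor. It went the other way, with 0.263 FPKM (DMSO) and 2.19 (tunicamycin) in wild type, and 0.173 (DMSO) and 1.51 (tunicamycin) in the knockout. The rise was 3.06 in wild type (q = 0.000396) and 3.12 in the knockout (q = 0.00342) on the log2 scale of the authors' deposited table. Mir3569,Zbtb32, a locus merged with the gene of a transcriptional repressor of lymphocytes, stood at 0.302, 1.30, 0.300 and 1.08 FPKM. It rose by 2.11 and 1.85 in the authors' deposited table (q = 0.000396 in both). Lymphocyte markers summed to 2.86, 2.09, 3.44 and 2.11 FPKM, so their sum did not rise with it.

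Besides Mir365-2, Mir34a and the let-7 locus, given above, 6 loci were called in a single genotype. With tunicamycin in wild type alone, Mir345 was higher (0.998 to 2.05 FPKM, log2 fold change 1.04, q = 0.0277 in the authors' deposited table). Mir3968 went from 1.19 to 0.164 FPKM (-2.86, q = 0.0117 in the authors' deposited table) and Dio3os,Mir1247, antisense to the thyroid hormone enzyme gene Dio3, from 1.58 to 0.279 (-2.51, q = 0.0293). Their knockout values in the authors' deposited table were 0.21, -1.76 and -1.48, none of them called. Mir3968 shares its interval with 4933422H20Rik, which was at 0.749, 0.135, 0.771 and 0.0460 FPKM in the order of groups used above. With tunicamycin that locus was called lower in the knockout (-4.07, q = 0.0297) and not in wild type (-2.47, q = 0.267), by the authors' deposited table. In the knockout alone, Mir1932 was lower (21.9 to 11.6 FPKM, -0.92, q = 0.0123 in the authors' deposited table). Mir3074-1, in an interval shared with the DNA repair gene Fancc, Gm16907 and 2010111I01Rik, went from 3.08 to 1.01 FPKM (-1.62, q = 0.0127 in the authors' deposited table). Its hairpin lies in an intron of Fancc and on the strand opposite an exon of 2010111I01Rik. The latter stood at 13.6, 5.92, 11.2 and 7.68 FPKM. With tunicamycin 2010111I01Rik was called lower in wild type (-1.20, q = 0.000396) and not in the knockout (-0.55, q = 0.191), by the authors' deposited table. Fancc was not called. E130102H24Rik,Mir101a, a noncoding host of miR-101a, went from 6.93 to 3.46 FPKM (it fell by 1.00 on the log2 scale, q = 0.0404 in the authors' deposited table). The wild-type values of Mir1932, Mir3074-1 and E130102H24Rik,Mir101a in the authors' deposited table were -0.51, -1.39 and -0.13, not called. A call in 1 genotype alone does not show that the genotypes differ, and none of these 6 passed the test of the difference.

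The difference between the tunicamycin responses was tested at 33 members, with the error of each response rebuilt from the deposited test statistic. It was called at 4, all with the knockout response above that of wild type, where 1.01% of all 14510 loci in the test were called (0.634% in this direction and 0.372% in the other). The knockout response minus the wild-type response was 3.50 for Mir17hg (SE 0.58, adjusted p = 1.04e-06), 3.40 for Mir365-2 (SE 0.68, adjusted p = 0.000200), 3.32 for the let-7 locus (SE 0.39, adjusted p = 1.57e-14) and 2.30 for Meg3 (SE 0.51, adjusted p = 0.00162), each by the z test with Benjamini-Hochberg adjustment, since pooled values allow no exact test over libraries. At the let-7 locus the deposited statistic for wild type was large (-3.16) while its p was 0.385. The same held at F630028O10Rik,Mir223 (-3.71 with p = 0.554 by the authors' Cuffdiff test), where the difference was not called. The mismatch ran the other way at Mir122a, where the wild-type statistic was -0.18 with p = 0.00340 by the authors' deposited table. The rebuilt SE of the Mir122a difference (29.5) left the test unable to detect one. In wild type it ran that way too at loci such as Mir3968 (-0.75 with p = 0.00225, SE 2.62) and Mir148a (1.25 with p = 5e-05, SE 2.55), by the authors' deposited table. The error was also taken from the deposited p, an alternative chosen after the data were seen. The adjusted p of the z test was then 0.0390 for let-7, 0.00155 for Mir17hg, 0.00141 for Meg3 and 0.177 for Mir365-2, which was lost. For Mir365-2 and Mir17hg in wild type and let-7 in the knockout, p stood at 5e-05, the smallest deposited by the authors' Cuffdiff test. An error taken from such a p is only an upper limit, so this alternative cannot decide whether the Mir365-2 call holds. Every one of the 4 called differences uses the knockout DMSO group, whose effect and that of lane 5 cannot be told apart. For Mir34a the difference was 1.56 (SE 0.74), not called by the same test.

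**Figure D2:**
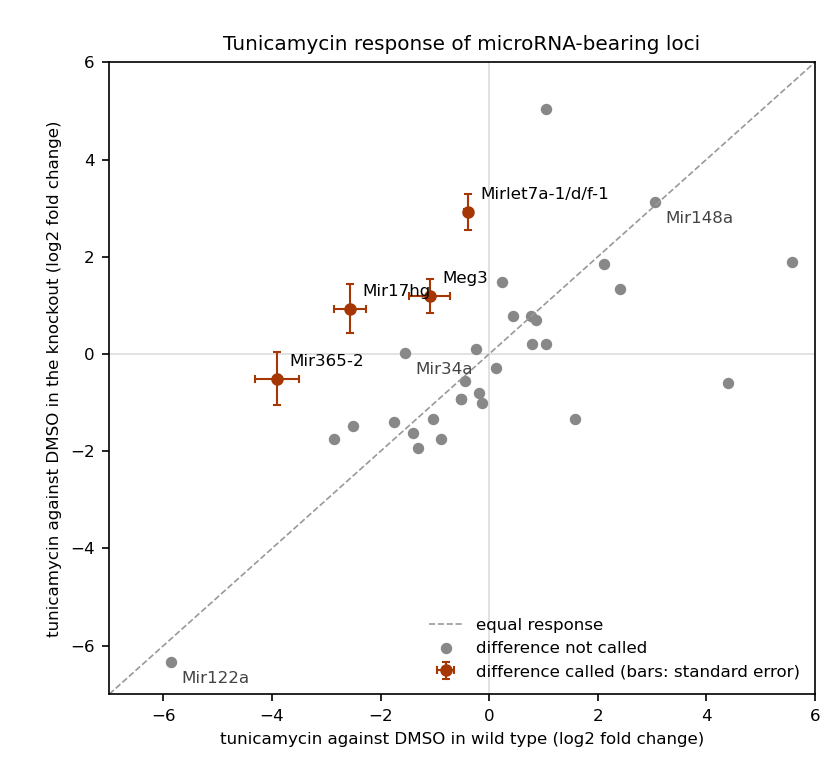
Tunicamycin response (log2 fold change of the authors' deposited table) of the 33 members tested in both genotypes, wild type on the horizontal axis and knockout on the vertical axis, with the dashed line where both are equal. The 4 coloured loci, with standard errors rebuilt from the deposited statistic, lie 2.30 to 3.50 above the line, while Mir122a and Mir148a lie close to it. The SE of the difference was 29.5 for Mir122a and 2.55 for Mir148a, so their place near the line does not show equal responses.

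Under tunicamycin, within lane 4, the knockout differed from wild type at 3 of the 35 members tested, 2 higher (Mir34a and Meg3) and 1 lower (F630028O10Rik,Mir223), where 5.92% of all 14919 loci were called (3.73% higher and 2.19% lower). The members' median was -0.10 and that of all tested loci -0.04. Adrenal, muscle and fat markers differ between these groups as given above, and their part in the Mir34a value was not tested.

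The loci with a shared interval held both the highest values and most of the zeros. Mir703 had the highest value of all members, 2724, 2292, 2079 and 2237 FPKM in the 4 groups, and no comparison was called. Its hairpin lies in an intron of Cfap299 on the opposite strand. Its mature sequence, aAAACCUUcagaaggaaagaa, also occurs without a mismatch in a GENCODE transcript of Eef1a1, the gene of a translation elongation factor, which stood at 1398, 1435, 1002 and 1243 FPKM. Mir6481, on the strand opposite an intron of the tryptophan tRNA ligase gene Wars2, was at 0.293, 14.0, 0.222 and 0.826 FPKM, with no call. Its mature sequence, cACUGAAAaugcuuagaug, occurs without a mismatch in mt-Tf, the mitochondrial phenylalanine tRNA. Which place the fragments came from was not tested.

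Among the 14 shared-interval loci with a group at 0, Mir6992 reached the most. It was at 21.3 FPKM (DMSO) and 105 (tunicamycin) in wild type, and 0 (DMSO) and 112 (tunicamycin) in the knockout, with no call. Its hairpin lies in an exon of Stx5a, a gene of vesicle transport to the Golgi, which stood at 32.2, 176, 26.4 and 137 FPKM. Stx5a rose with tunicamycin by 2.45 in wild type and 2.37 in the knockout (q = 0.000396 in both, in the authors' deposited table). Both loci were thus high in the tunicamycin groups, and only the host was called.

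Other pairs are given with the gene's values beside those of the microRNA locus, and no difference between the members of a pair was tested. Mir7-1, in an intron of the RNA-binding protein gene Hnrnpk, was at 19.3 and 40.3 FPKM in the wild-type and knockout DMSO groups and listed at 0 in both tunicamycin groups, where Hnrnpk lay between 46.1 and 53.3 with no call. Mir3473e, in an intron of the ribokinase gene Rbks, was at 19.7 and 37.3 FPKM with DMSO and listed at 0 with tunicamycin, where Rbks was at 12.0, 7.11, 9.14 and 7.47 in the order of groups used above and was called lower with tunicamycin in wild type (-0.76, q = 0.0273 in the authors' deposited table). Mir1192, which shares its interval with the transcription factor gene Klf9, was at 17.7, 44.7, 0 and 15.4 FPKM, and Klf9 at 32.0, 74.3, 34.6 and 51.1. Both had their highest value in wild type with tunicamycin, and Klf9 was called higher with tunicamycin (1.22, q = 0.000396 in wild type and 0.56, q = 0.0424 in the knockout, in the authors' deposited table). Mir6244, which lies on the strand opposite an exon of Zc3h12c, was at 0, 59.7, 9.11 and 23.7 FPKM. That gene was at 2.13, 3.36, 2.13 and 3.27 FPKM and was called higher with tunicamycin in both genotypes (0.66, q = 0.0127, and 0.62, q = 0.0195, in the authors' deposited table). Both were thus higher in level with tunicamycin than with DMSO in each genotype. None of these 4 microRNA loci was called by the authors' Cuffdiff test in the comparisons where it was made, and none had an unadjusted p under 0.05.

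Some of these loci had a value in 1 group alone and no test in any comparison: Mir697 in Sf3a3 (17.2 FPKM in wild type with tunicamycin), Mir423 in Ccdc55 (17.0 in the knockout with tunicamycin), Mir1931 in Cdk17 (9.03 in wild type with DMSO) and Mir467f beside Fxr2 (8.52 in the same group). The hosts were above 4 FPKM in all 4 groups. Mir3535 beside the nucleolin gene Ncl was listed at 0 in wild type with DMSO and at 10.003 to 10.9 elsewhere. Mir6516 was at 32.9, 0, 0 and 15.7 FPKM, and Mir6363 at 0, 0, 8.61 and 6.78. Without counts, it cannot be said how few fragments these values rest on.

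Mir7060 shows such a locus in its sequence. Its hairpin fills a whole intron of Fbrs in the GRCm38 annotation, a form known as a mirtron, in which splicing takes the place of the Drosha cut. The hairpin is printed with its mature strand in capitals, which begins at the first base of the intron.
Mir7060: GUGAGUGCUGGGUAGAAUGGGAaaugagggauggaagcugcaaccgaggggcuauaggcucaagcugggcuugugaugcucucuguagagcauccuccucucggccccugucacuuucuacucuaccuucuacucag
It was listed at 0 in both DMSO groups and at 3.62 and 3.58 FPKM in the wild-type and knockout tunicamycin groups, with no test. Fbrs stood at 9.76 and 10.7 FPKM with DMSO and at 19.5 and 16.9 with tunicamycin, and rose by 1.00 and 0.66 in the authors' deposited table (q = 0.000396 and q = 0.0130).

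**Figure D3:**
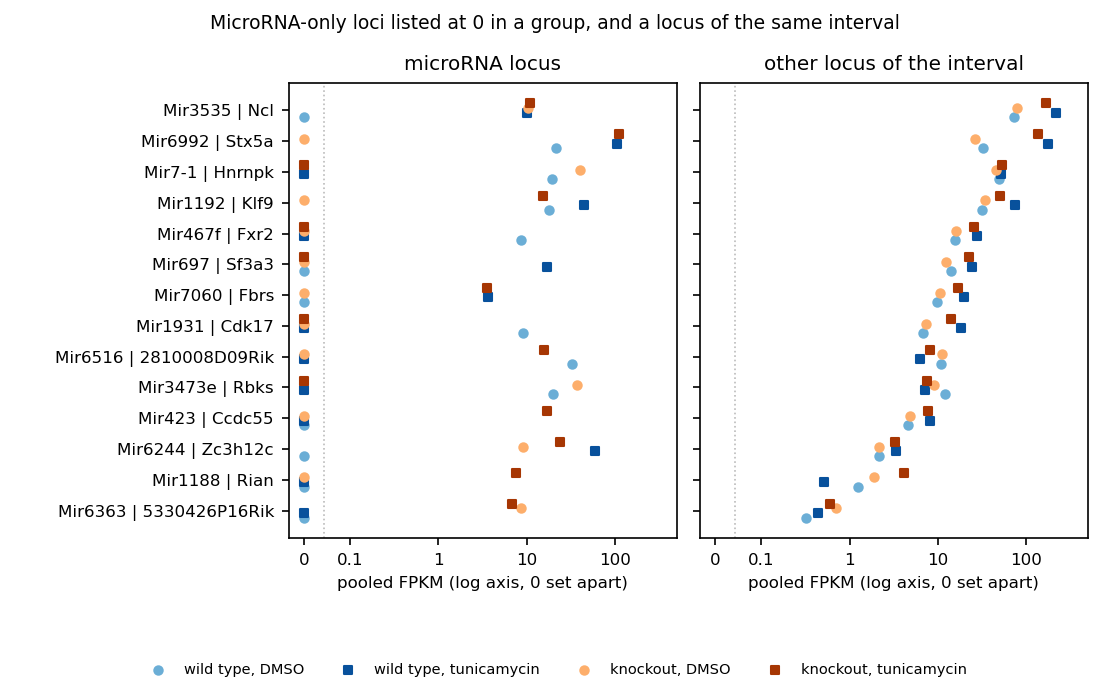
Pooled FPKM (log axis, with 0 set apart at the left) of the 14 microRNA-only loci that share their interval with another named locus and are listed at 0 in at least 1 group (left), and of the most abundant other locus of the interval (right), 1 point per group. Values of the microRNA loci jump between 0 and 3.58 to 112 FPKM, while the other loci have a value in every group.

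The remaining loci gave no call. Mir30c-2, of the miR-30 family, was nearest to one, with 2.35, 4.06, 2.77 and 3.21 FPKM and a wild-type tunicamycin value of 0.79 (q = 0.0510) in the authors' deposited table. It is called when p-values are adjusted within that comparison (q = 0.0345). Mir802, known in liver glucose metabolism, was at 2.40, 1.17, 1.88 and 0.747 FPKM. The host of Mir29b-2 and Mir29c, microRNAs that repress collagen genes, was at 1.80, 1.96, 1.61 and 1.32, and Mir143hg,Mir145, of smooth muscle, at 1.21, 1.06, 1.78 and 1.02. Mir24-2, Mir31, Mir8102, Mir3620, Mir1258 and the merged loci of Mir290 and Mir1901 reached between 1.28 and 3.04 FPKM at most. Mir1839 and Mir5136 in their merged loci reached 5.25 and 4.14 FPKM, and Mir1940,Snora47 reached 24.1 with 2 groups at 0. Mir6340, Mir466i and Mir1957b, which share the intervals of Rab22a, Cdk13 and Wdr59, reached at most 40.1, 19.7 and 16.8 FPKM.

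Genes of the machinery that makes and uses microRNAs were called about as often as all loci with tunicamycin when both directions were counted together. Knockout against wild type gave 1 call under DMSO and 0 under tunicamycin. Of 39 genes in a list of that pathway, all matched a locus, with Ago1 and Ago3 merged into 1, and 36 of the 38 loci were tested. Tunicamycin raised 11 and lowered 4 in wild type, where 37.1% of all loci tested were called, and raised 8 and lowered 4 in the knockout, where 33.0% were. The list's median log2 fold change was 0.24 in wild type and 0.15 in the knockout, beside -0.02 and 0.01 over all tested loci.

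Of the processing enzymes, Drosha, which makes the first cut, rose from 3.63 to 7.07 FPKM in wild type and from 3.65 to 6.38 in the knockout (0.96 and 0.81, q = 0.000396 and q = 0.00171 in the authors' deposited table). Xpo5, the exporter of the cut hairpin, rose from 5.89 to 13.7 and from 7.01 to 14.1 FPKM. Dicer1, which makes the second cut, was at 7.06, 8.07, 7.18 and 7.17 FPKM with no call, and its partner Prkra fell in wild type (11.6 to 6.39). Khsrp, a cofactor in the maturation of let-7 and other precursors, rose from 13.8 to 56.6 FPKM in wild type and from 14.9 to 43.9 in the knockout (2.04 and 1.56 in the authors' deposited table, q = 0.000396 in both). The let-7 primary locus itself gave no call for tunicamycin in wild type, as given above.

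Of the effectors, the merged Ago1,Ago3 locus fell (-0.83 in wild type and -0.86 in the knockout, in the authors' deposited table), while Ago2, the Argonaute that cuts its target, was at 4.43, 5.97, 4.55 and 5.67 FPKM with no call. The helicase gene Mov10, an Argonaute partner, fell most, from 6.15 to 0.705 FPKM in wild type and from 7.04 to 0.926 in the knockout (-3.13 and -2.93 in the authors' deposited table, q = 0.000396 in both). Parn, a poly(A) nuclease, rose by 2.01 and 1.75 there. Papd4, the poly(A) polymerase that adds adenine to miR-122, rose by 0.59 and 0.64 in the authors' deposited table. Between genotypes, Hnrnpa1 alone was called, higher in the knockout under DMSO (0.60, q = 0.0422 in the authors' deposited table). Under tunicamycin the authors' Cuffdiff test called none of the 36, and none had an unadjusted p under 0.05.

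**Figure D4:**
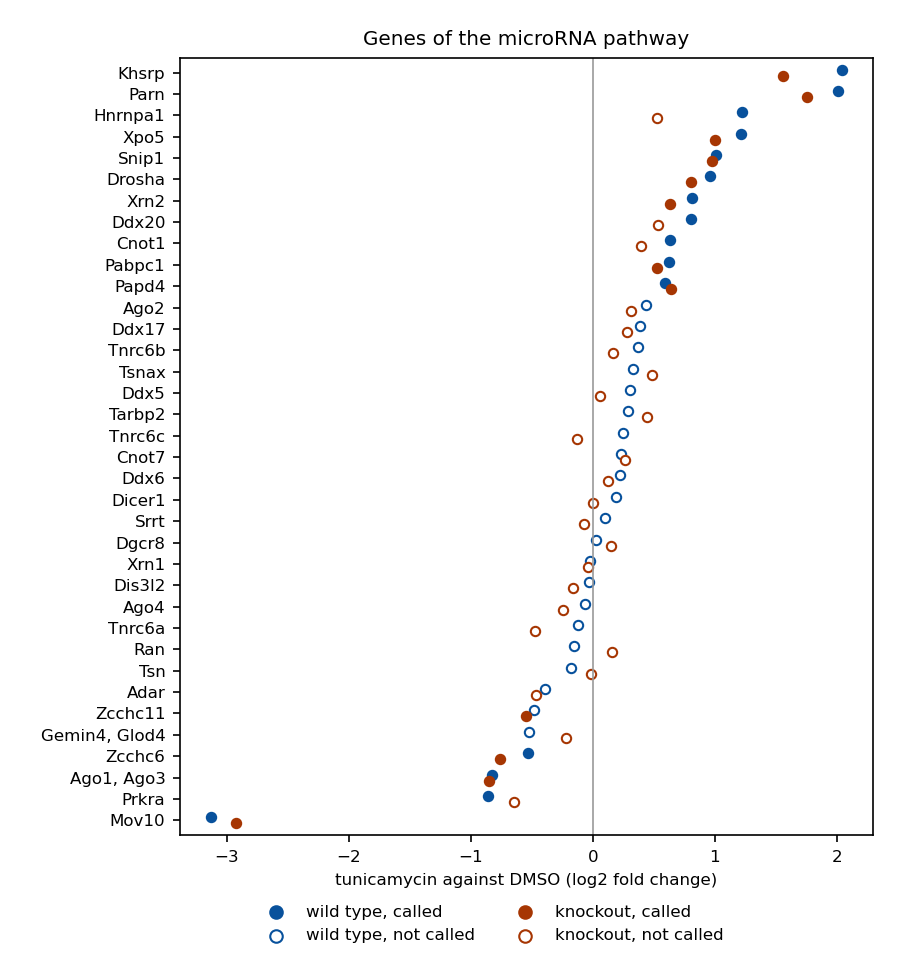
Tunicamycin response (log2 fold change of the authors' deposited table) of the 36 tested loci of the microRNA pathway, for each genotype, with filled points for called changes. Khsrp and Parn lie farthest to the right and Mov10 farthest to the left in both genotypes.

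A second list held 36 genes known to carry a microRNA in an intron or exon, looked up on loci of their own. Of 35 found, 29 were tested in wild type, where tunicamycin raised 4 and lowered 6, and 30 in the knockout, where it raised 6 and lowered 7. These counts lie near the shares over all loci tested (37.1% and 33.0%). Pank1, a coenzyme A synthesis gene that carries Mir107, fell from 59.2 to 18.8 FPKM in wild type and from 47.3 to 14.0 in the knockout (-1.66 and -1.75 in the authors' deposited table). Srebf2, the master gene of cholesterol synthesis and host of Mir33, fell by 0.86 and 0.62 in the authors' deposited table. Vmp1, whose end overlaps Mir21, rose by 0.56 and 0.64 in the authors' deposited table. The knockout was higher at 2 of 29 tested under DMSO (Gpc1 and Col27a1), where 1.39% of all loci tested were called higher. Under tunicamycin it was higher at 3 of 30 (Gpc1, H19 and Igf2), where 3.73% of all loci tested were. H19, host of Mir675, was at 0.452, 0.418, 0.319 and 12.95 FPKM, highest in the group with the foreign tissue markers, whose part was not tested.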

How the data were processed

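Poly(A) RNA of mouse liver was sequenced in 12 libraries. Per the submitters' processing notes, the authors used bcl2fastq, aligned with TopHat2 2.0.4 to mm9, and used Cufflinks and Cuffdiff. The sources used here name neither the annotation nor the scaling of libraries. Per the file headers, the authors deposited 1 pooled FPKM per locus and group. For each of 6 comparisons (4 used here) they also deposited a p-value, a q-value, a score (the test statistic, of no fixed range) and a log2 fold change. The deposited q-values equal a Benjamini-Hochberg adjustment over all 90828 tests together. Infinite log2 values, where a group is at 0, were left out of medians. Depth per library is unknown, so no interval is given, and whether libraries came from separate mice is not stated, so the authors' p-values may measure technical spread in part. Locus positions are the table's mapped intervals in mm9, and sequences and hairpin annotation (RefSeq, GENCODE vM21) are on GRCm38, with no conversion. Mir122a, Mir145, Mir1258 and Mir1901 lie in the part of RefSeq left out before matching, so their missing sequences are no gap of RefSeq.

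The members and lists were chosen with earlier results of these data known. Named were the microRNA-only loci with the highest FPKM (up to 30), merged loci called or among the 10 highest, and a list of liver, stress and p53 microRNAs. Mir345, Mir3968, Mir31, Mir3620 and the loci of Mir290 and Mir1901 fall outside that rule and were added after their values were seen. Likeness of patterns over 4 group values was not computed. The z test of the difference between responses scaled the deposited statistic by 1.73 to match the deposited p-values and was tested on simulated data. In those data the statistic and p always matched. The simulation therefore cannot speak to loci where they disagree, such as let-7 and Mir122a. Computations used Python 3.11.15 with scipy 1.17.1, pandas 2.3.3, numpy 2.4.6 and matplotlib 3.10.9. Other adjustments, thresholds, FPKM minimums, classes and centring were tried as alternatives.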

Additional observations from a re-analysis of the deposited data

Results flagged for a closer look

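At 4 loci the tunicamycin response of the knockout differed from that of wild type by a test of the difference itself. The difference in log2 fold change, knockout minus wild type, was 3.5 at Mir17hg,Mir18,Mir19a,Mir19b-1,Mir20a, 3.4 at Mir365-2, 3.32 at Mirlet7a-1,Mirlet7d,Mirlet7f-1 and 2.3 at Meg3,Mir1906-1,Mir770. At Mir365-2 the call is lost when the error is taken from the deposited p, with the limit given above, which leaves 3 calls. Each of them uses the knockout DMSO libraries on lane 5, and the part of the lane was not tested.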

How the results depend on the processing

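No paired analysis was possible because each group has a single pooled value, and for the same reason no replicate could be left out. Called members under other settings were as follows. With q under 0.01 the count was 5 for the wild-type and 4 for the knockout response to tunicamycin. With at least 5 FPKM it was 3 and 5. Merged loci alone gave 3 for genotype under DMSO, 4 for tunicamycin in wild type and 4 in the knockout. MicroRNA-only loci alone gave 3, 7 and 6, and 1 for genotype under tunicamycin. The members' median log2 fold change for genotype under DMSO was 0.022 with at least 5 FPKM and 0.19 when centred on all tested loci. For tunicamycin in wild type it was -0.095 on the log2(FPKM + 1) scale. In the knockout it turned to -0.080 on that scale, and was 0.11 with at least 5 FPKM and 0.0027 when centred. For genotype under tunicamycin it was -0.058 on that scale and -0.057 when centred. The cause of these shifts was not tested. Of the 30 single calls, 29 held when p-values were adjusted within a comparison (Meg3 for genotype under DMSO did not, and Mir30c-2 for tunicamycin in wild type was gained), 17 held at q under 0.01, and all 30 kept their direction when centred.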
